A study of Macaca mulatta with 30 samples.

Results

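The genes described here encode kainate receptor subunits and metabotropic glutamate receptors. They were taken as the probe sets whose single annotated gene symbol was one of 9 receptor genes, 4 for kainate receptor subunits and 5 for metabotropic receptors, with the brightest probe set kept per gene. Of these 9 genes, 3 had such a probe set and are described: GRIK1 (probe set 13726399), GRM2 (probe set 13711849) and GRM8 (probe set 13736591), out of 15534 genes with a single symbol in the whole series. Each of the 3 had 1 probe set, and all 3 passed the filter on dim probe sets. GRIK2, GRIK3, GRIK4, GRM3, GRM5 and GRM7 are not analysed here.

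The study asked whether gene expression differs between the hemispheres of the cerebral cortex, and the macaque arrays are used here. Frozen post-mortem cortex of 5 rhesus macaques was profiled on 30 Affymetrix arrays, 1 for each animal, region and hemisphere. The regions were ventrolateral prefrontal cortex (VFC, at the lower branch of the arcuate sulcus), posterior superior temporal cortex (STC) and the primary motor cortex where the forelimb is controlled (M1C). By label, animals 1, 2 and 3 were females aged 7.3, 5.5 and 8.6 years, and the other pair, animals 4 and 5, males aged 4.2 and 2 years. No strain, genotype or treatment group was labelled, and sex and age go together with animal, so neither was tested. RNA came from homogenized pieces of tissue, so all cell types of the cortex contribute.

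Glutamate acts on ion channels, among them kainate receptors, and on metabotropic receptors that signal through G proteins. Kainate receptors sit on both sides of synapses. GRIK1 encodes the subunit GluK1, which in rodent cortex is prominent in interneurons. GRM2 encodes mGlu2 of group II and GRM8 encodes mGlu8 of group III, both coupled to Gi proteins and found mainly on presynaptic terminals, where their activation lowers transmitter release. Group I receptors, by contrast, act through Gq proteins and phospholipase C.

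The values are RMA log2 intensities, so a difference of 1 is a doubling of intensity, and levels of different probe sets are not set against each other. Among markers of cortical neurons, TBR1 read 9.37 to 9.98 over the arrays, CAMK2A 12.37 to 12.67 and GAD1 10.33 to 10.66. Other such markers lay nearer the array medians of 6.57 to 6.64, among them NEUROD2 at 7.08 to 7.74, SLC32A1 at 7.45 to 7.95 and DLX5 at 6.48 to 7.05. By the correlation of deviations from group means, 28 of 30 arrays resembled most the other arrays of the same animal. The array labelled M1C left of animal 3 had a mean r of -0.059 with its own animal and 0.13 with animal 4. The array labelled STC right of animal 4 had a mean r of 0.087 with its own animal, while with animal 3 it had 0.23. EIF1AY, a gene on the Y chromosome, read 8.34 on the first of these arrays, labelled female, and 7.25 on the second, labelled male. It read 6.83 to 7.70 on the arrays of females 1 and 2 and 8.30 to 8.53 on those of male 5. Between these ranges lay the right STC array of animal 3 (7.87) and the left VFC array of animal 4 (8.29), both closest to their own animal. Results are therefore also given without the 2 arrays that lay nearer another animal, where the region mean of that animal rests on the other hemisphere.

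GRIK1 was higher in VFC and STC than in M1C. In VFC the left arrays of animals 1 to 5 read 8.88, 9.27, 8.80, 8.76 and 8.84 log2, and the right arrays 8.82, 9.09, 8.76, 8.79 and 8.88. In STC the left arrays of animals 1 to 5 read 8.98, 9.24, 9.10, 8.94 and 8.75, and the right arrays 8.84, 8.99, 8.81, 8.32 and 8.87. In M1C the left arrays of animals 1 to 5 read 8.50, 8.39, 8.91, 8.21 and 8.75, and the right arrays 8.18, 8.23, 8.41, 8.36 and 8.19. The right M1C arrays lay below every VFC array, whereas 1 left M1C array (animal 3) lay among the VFC arrays. Animal 2 had the highest GRIK1 value on both VFC sides and both STC sides. The lowest STC value, 8.32 on the right of animal 4, belongs to one of the 2 arrays that lay nearer another animal, as does the highest M1C value, 8.91 on the left of animal 3.

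With both hemispheres averaged, GRIK1 averaged 8.89 ± 0.17 (log2) for VFC, 8.88 ± 0.18 for STC and 8.41 ± 0.15 for M1C (SD, n = 5 animals). The VFC and STC levels are neighbours that did not differ beyond their spread, and M1C was lowest. Animal by animal, VFC minus M1C was 0.51, 0.87, 0.12, 0.49 and 0.39 log2 in animals 1 to 5, so GRIK1 was higher in VFC in 5 of 5 animals; 20.8% of all tested probe sets had 1 direction in all 5. The mean difference was 0.48 ± 0.083 (standard error), or 1.39-fold, with a 95% interval of 0.30 to 0.66 and an adjusted p of 0.00505 by limma with animal as block and Benjamini-Hochberg adjustment over 24292 probe sets. The 5 animal means of VFC (8.78 to 9.18) and of M1C (8.28 to 8.66) did not overlap, as for 4.71% of all tested probe sets. In tissue RNA of this kind, fewer cells of a type and less RNA per cell cannot be told apart.

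For STC minus M1C, GRIK1 differed by 0.57, 0.80, 0.30, 0.35 and 0.34 log2 in animals 1 to 5, always higher in STC (1 direction in all 5 for 19.9% of probe sets). The mean was 0.47 ± 0.083, or 1.39-fold, with an interval of 0.29 to 0.65 and an adjusted p of 0.0190 by limma. Here the ranges of animal means overlapped, because animal 4 had 8.63 in STC and animal 3 had 8.66 in M1C, and both means contain one of the 2 arrays that lay nearer another animal. Without those arrays the animal means were 8.81 to 9.11 in STC and 8.28 to 8.47 in M1C and did not overlap, as for 5.71% of all tested probe sets. Between VFC and STC the difference was 0.0050 ± 0.083 with an interval of -0.18 to 0.19 and an adjusted p of 0.989, VFC being higher in 3 of 5 animals. With the 2 arrays left out, GRIK1 differed by 0.53 ± 0.068 between VFC and M1C (adjusted p = 0.000390) and by 0.58 ± 0.068 between STC and M1C (adjusted p = 0.000412). The VFC call was lost with left arrays only (adjusted p = 0.184), where limma called 0.0123% of all probe sets. The STC call was lost when animal 1, 2 or 5 was left out (adjusted p = 0.123, 0.0685 and 0.0523). It was also lost with left or right arrays only (0.258 and 0.0836), with no filter (0.0518) and with no block (0.0648). With these changes limma called 0% to 0.741% of all probe sets, beside 2.36% with none of them.

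GRM2 was higher in VFC than in M1C, and its STC mean lay between them. In VFC the left arrays of animals 1 to 5 read 8.17, 8.26, 8.21, 8.68 and 8.57 log2, and the right arrays 8.24, 8.39, 8.25, 8.95 and 8.58. In STC the left arrays read 8.07, 8.04, 8.20, 8.44 and 8.04, and the right arrays 7.96, 8.19, 8.14, 7.99 and 8.11. In M1C the left arrays read 7.79, 7.99, 8.42, 7.99 and 7.78, and the right arrays 7.56, 7.96, 7.99, 8.49 and 8.15. Animals 4 and 5, by label the males and also the youngest, had the highest VFC values on both sides. The widest spread was in M1C, between 7.56 on the right of animal 1 and 8.49 on the right of animal 4.

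GRM2 averaged 8.43 ± 0.26 (log2) for VFC, 8.12 ± 0.080 for STC and 8.01 ± 0.23 for M1C (SD, n = 5 animals). VFC minus M1C was 0.53, 0.35, 0.022, 0.57 and 0.61 in animals 1 to 5, which is positive in all 5 although small in animal 3. With the left M1C array of animal 3 left out, that animal had 0.24. The mean difference was 0.42 ± 0.083, or 1.33-fold, with an interval of 0.24 to 0.60 and an adjusted p of 0.00915 by limma. VFC and M1C animal means overlapped, since animal 1 had 8.20 in VFC and animal 4 had 8.24 in M1C. VFC minus STC of GRM2 was 0.19, 0.21, 0.053, 0.60 and 0.50 in animals 1 to 5, positive in 5 of 5 (1 direction in all 5 for 12.6% of probe sets). That mean of 0.31 ± 0.083 (1.24-fold, interval 0.13 to 0.49) had an unadjusted p of 0.00263 and did not pass after adjustment (limma adjusted p = 0.124). STC and M1C were not separated by this test, at 0.11 ± 0.083 with an interval of -0.074 to 0.29 and an adjusted p of 0.525, STC being higher in 3 of 5 animals. With the 2 arrays left out, VFC minus M1C was 0.46 ± 0.062 (adjusted p = 0.000495), VFC minus STC 0.27 ± 0.062 (adjusted p = 0.0780) and STC minus M1C 0.19 ± 0.062 (adjusted p = 0.0615). The call between VFC and M1C was lost with left arrays only (adjusted p = 0.151) and with no block (0.0613). Limma then called 0.0123% and 3.43% of all probe sets.

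GRM8 had its highest mean in STC, and none of its region differences passed the threshold on all 30 arrays with the filter and variance model used for the main results. In VFC the left arrays of animals 1 to 5 read 8.49, 8.58, 8.50, 8.62 and 8.28 log2, and the right arrays 8.57, 8.65, 8.36, 8.65 and 8.52. In STC the left arrays read 8.67, 8.99, 8.59, 8.77 and 8.49, and the right arrays 8.65, 9.01, 8.75, 8.32 and 8.31. In M1C the left arrays read 8.22, 8.47, 8.85, 8.56 and 8.28, and the right arrays 8.24, 8.65, 8.22, 8.35 and 7.91. Animal 2 was highest on both STC sides, and the M1C arrays were the most scattered, the lowest being the right side of animal 5. The arrays that lay nearer another animal again had the highest left M1C value and a low right STC value.

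GRM8 averaged 8.52 ± 0.11 (log2) for VFC, 8.66 ± 0.22 for STC and 8.37 ± 0.20 for M1C (SD, n = 5 animals), and the animal means of all 3 regions overlapped. STC minus M1C was 0.43, 0.44, 0.14, 0.092 and 0.31 in animals 1 to 5. The mean of 0.28 ± 0.071 (1.21-fold, interval 0.13 to 0.44, 5 of 5 animals) had an unadjusted p of 0.00188 and an adjusted p of 0.0588 by limma. VFC minus M1C was 0.15 ± 0.071 (interval -0.0082 to 0.30, adjusted p = 0.232), positive in 4 of 5 animals. VFC minus STC was -0.13 ± 0.071 (interval -0.29 to 0.021, adjusted p = 0.452), negative in 4 of 5 animals. On all arrays, STC minus M1C did pass with a filter at the 60th percentile and with trend and robust variance. Limma then called 5.08% and 3.8% of all probe sets. Without the 2 arrays, both differences from M1C passed the threshold: STC minus M1C was 0.39 ± 0.052 (adjusted p = 0.000795) and VFC minus M1C was 0.21 ± 0.052 (adjusted p = 0.0166). VFC minus STC was then -0.18 ± 0.052 (adjusted p = 0.137).

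**Figure D1:**
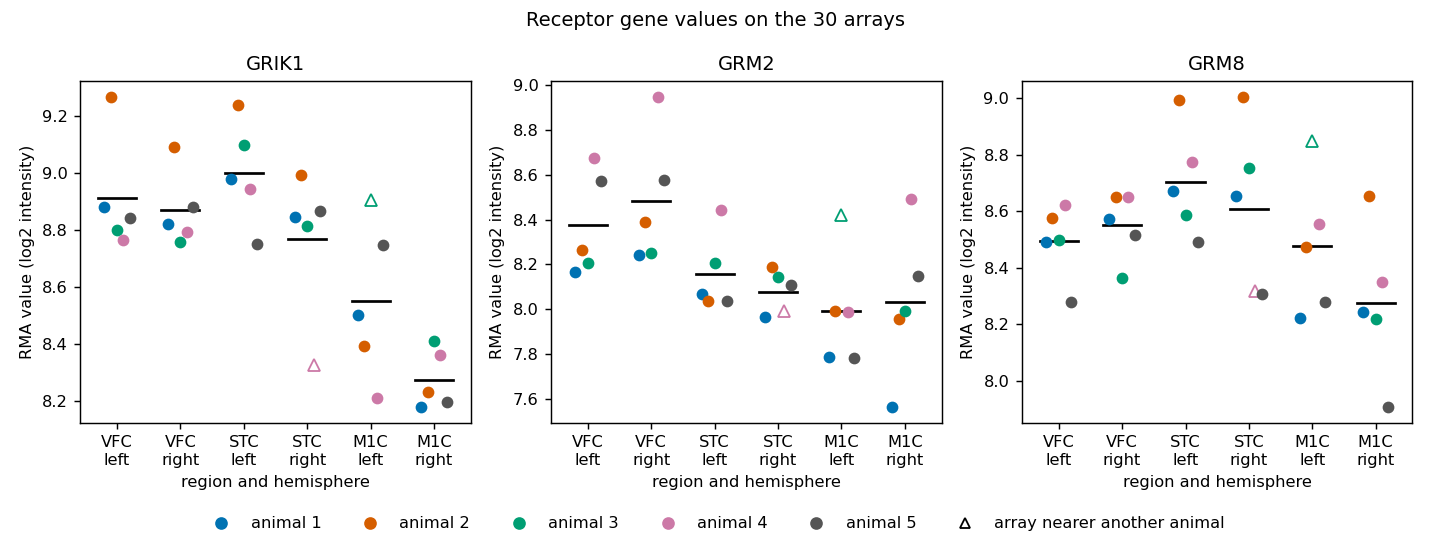
RMA log2 intensity (vertical axes) of GRIK1, GRM2 and GRM8 on each of the 30 arrays by region and hemisphere; colours mark the 5 animals, bars the mean of each group of 5 arrays and open triangles the 2 arrays that lay nearer another animal. GRIK1 lies between 8.76 and 9.27 in VFC and between 8.18 and 8.91 in M1C.

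Counted together, 2 of the 3 genes (GRIK1 and GRM2) were called between VFC and M1C, both higher in VFC. In that comparison limma called 10.5% of all tested probe sets, 5.19% as higher in VFC. Between STC and M1C 1 of 3 (GRIK1) was called, against 2.36% of all probe sets and 1.22% called as higher in STC, and between VFC and STC 0 of 3, against 0.214%. The unadjusted p was under 0.05 for GRM2 alone of the 3 between VFC and STC, and for 13.4% of all probe sets. Between STC and M1C it was under 0.05 for GRIK1 and GRM8, and for 19.4% of all. With the 2 arrays left out the counts were 3 of 3 (14.7% of all, 7.17% higher in VFC), 2 of 3 (12.6% of all, 5.96% higher in STC) and 0 of 3 (0.655%). The 2 comparisons with M1C share the M1C arrays, so they are not independent of each other. The receptor genes were chosen with earlier results of these data known, so these counts are a description.

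The size of the differences can be set beside those of other probe sets. A larger absolute difference was seen in 1.498% of tested probe sets for GRIK1 between VFC and M1C, and in 0.733% between STC and M1C. The corresponding share was 2.12% for GRM2 between VFC and M1C, 1.58% for GRM2 between VFC and STC, and 3.45% for GRM8 between STC and M1C. The remaining shares were larger, at 94.7% for GRIK1 between VFC and STC, 28.1% for GRM2 between STC and M1C, and 20.8% and 14.2% for GRM8 between VFC and M1C and between VFC and STC. The median absolute difference over all tested probe sets was 0.069, 0.062 and 0.053 log2 for VFC minus M1C, STC minus M1C and VFC minus STC.

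**Figure D2:**
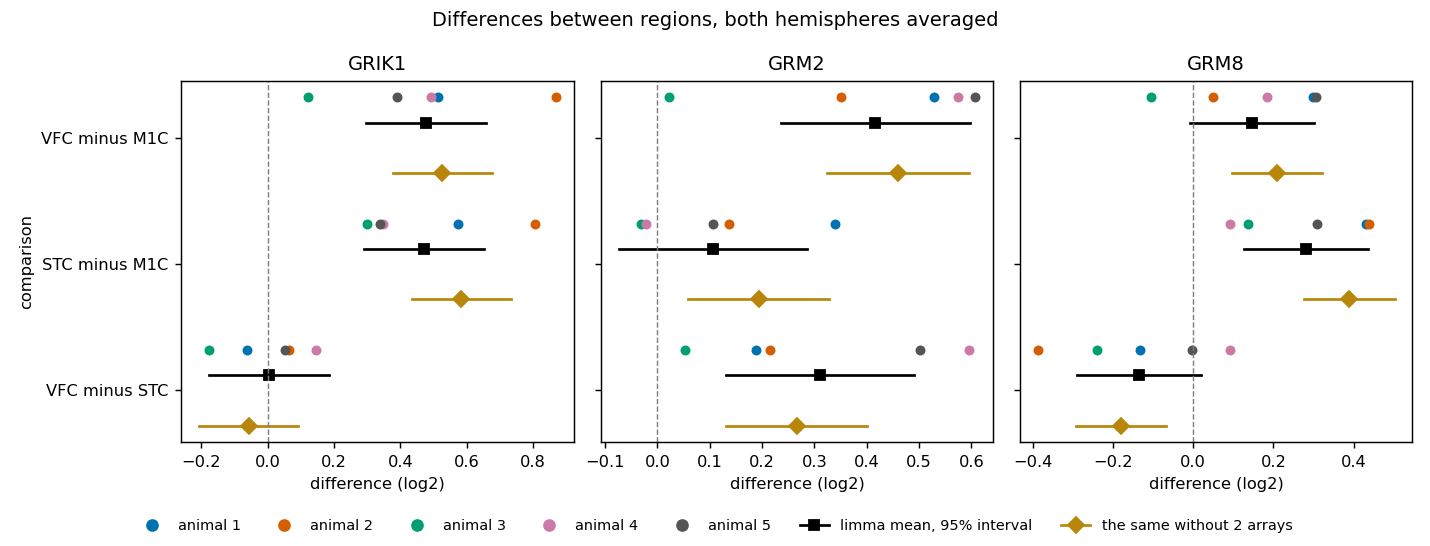
Region differences (horizontal axes, log2) of the 3 genes with both hemispheres averaged; coloured points are the 5 animals, black squares the limma mean with its 95% interval and yellow diamonds the same without 2 arrays. For GRIK1 the intervals of both comparisons with M1C lie above 0 (0.30 to 0.66 and 0.29 to 0.65), and for GRM2 those of both comparisons of VFC do (0.24 to 0.60 and 0.13 to 0.49).

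The variation over the 30 arrays divided differently among the 3 genes. Region accounted for 53.3% of the sum of squares of GRIK1, 38.8% of GRM2 and 23.2% of GRM8, against a median of 8.73% over all tested probe sets. Animal accounted for 11.04% in GRIK1, 26.7% in GRM2 and 33.7% in GRM8, against a median of 22.9%. Hemisphere accounted for 9.02% in GRIK1, 0.130% in GRM2 and 2.79% in GRM8, against a median of 1.30%. GRIK1 thus had the largest region and hemisphere shares of the 3, and GRM8 the largest animal share.

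Markers of other cells moved with the same regions. Between VFC and M1C all 12 tested oligodendrocyte markers were called lower in VFC (median -0.89 log2), and so were all 7 markers of neurons with large axons (median -0.93). These 7 include PVALB, which marks a major class of interneurons and had a difference of -0.93 ± 0.12 (limma adjusted p = 0.00179). The oligodendrocyte mean per animal ranged from 8.004 to 9.22 in VFC, 8.83 to 9.65 in STC and 9.37 to 9.92 in M1C. The large-axon mean ranged from 9.11 to 9.90 in VFC, 9.68 to 10.29 in STC and 10.26 to 10.75 in M1C. Between STC and M1C 1 of 12 oligodendrocyte and 4 of 7 large-axon markers were called lower in STC, and 9 of 12 and 7 of 7 without the 2 arrays. In that comparison limma called 2.36% of all probe sets on all arrays and 12.6% without the 2 arrays. On the interneuron list, which does not hold PVALB, 1 of 11 markers, SST, was called higher in VFC than in M1C and also in STC than in M1C. PVALB had an STC minus M1C difference of -0.51 ± 0.12 (adjusted p = 0.0510). Of the excitatory neuron markers, 2 of 6 (NEUROD6 and CAMK2A) were called higher in VFC. The mean of the interneuron list was 8.79 to 8.96 in VFC, 8.86 to 8.97 in STC and 8.80 to 8.91 in M1C. The excitatory mean was 10.14 to 10.23 in VFC, 10.08 to 10.17 in STC and 10.07 to 10.15 in M1C. Meningeal markers were called higher in VFC than in M1C for 3 of 6 (median 0.48), and markers were called lower for 3 of 9 astrocyte, 2 of 5 oligodendrocyte precursor, 2 of 6 vascular and 0 of 5 microglial genes. RMA values have no true 0. The part of these markers in the differences of GRIK1, GRM2 and GRM8 was not tested.

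Between hemispheres, none of the 3 genes was called in any region. For GRIK1 averaged over the 3 regions, left minus right was 0.17, 0.19, 0.27, 0.15 and 0.13 log2 in animals 1 to 5, positive in 5 of 5. For left minus right the share of all probe sets with 1 direction in all 5 was not counted. The GRIK1 mean was 0.18 ± 0.036, or 1.14-fold, with an interval of 0.10 to 0.27. Its unadjusted p was 0.000740 and its adjusted p 0.368 by limma, which called 0 of 24292 probe sets (0%) and gave 1608 (6.62%) an unadjusted p under 0.05. By region the left minus right difference of GRIK1 was 0.043 ± 0.097 in VFC (adjusted p = 1.00), 0.23 ± 0.097 in STC (unadjusted p = 0.0282, adjusted p = 0.999) and 0.28 ± 0.097 in M1C (unadjusted p = 0.0112, adjusted p = 0.800). The difference was positive in 3 of 5 animals in VFC and in 4 of 5 in STC and in M1C. The largest STC difference, 0.62 in animal 4, contains the right STC array that lay nearer animal 3, and the M1C difference of animal 3, 0.50, contains the left M1C array that lay nearer animal 4. Without the 2 arrays GRIK1 was 0.14 ± 0.094 in STC, 0.22 ± 0.094 in M1C and 0.11 ± 0.049 over all regions (adjusted p = 0.998). Animal 4 then had -0.090 over its remaining pair of regions, so the difference was positive in 4 of 5 animals. Without 4 arrays, those 2 together with the right STC array of animal 3 and the left VFC array of animal 4, it was 0.078 ± 0.057 over all regions (adjusted p = 0.983).

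For GRM2 in VFC, left minus right was below 0 in 5 of 5 animals, between -0.27 and -0.0031 log2. The mean of -0.10 ± 0.11 had an interval of -0.34 to 0.13 and an adjusted p of 1.00 by limma. In STC its difference was 0.080 ± 0.11 and in M1C -0.037 ± 0.11. The M1C differences of single animals ran from -0.50 in animal 4 to 0.43 in animal 3, where animal 3 contributes the left M1C array that lay nearer animal 4, and over all regions the mean was -0.021 ± 0.051 (interval -0.14 to 0.095, adjusted p = 0.974). Without the 2 arrays GRM2 was -0.013 ± 0.098 in STC, -0.15 ± 0.098 in M1C and -0.10 ± 0.065 over all regions (adjusted p = 0.998). GRM8 was -0.058 ± 0.10 in VFC, 0.096 ± 0.10 in STC and 0.20 ± 0.10 in M1C (unadjusted p = 0.0645), with single M1C animals between -0.18 and 0.63. Over all regions GRM8 was 0.079 ± 0.052 (interval -0.039 to 0.20, adjusted p = 0.862), positive in 3 of 5 animals. Without the 2 arrays GRM8 was 0.0054 ± 0.086 in STC, 0.093 ± 0.086 in M1C and 0.012 ± 0.041 over all regions (adjusted p = 0.998), positive in 2 of 5 animals. The unadjusted p was under 0.05 for 869, 1133 and 1367 probe sets in VFC, STC and M1C (3.58%, 4.66% and 5.63%).

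Whether the left minus right difference itself varied between regions was tested with a moderated F on the 15 differences. F was 1.65 for GRIK1, 0.71 for GRM2 and 1.65 for GRM8 (limma adjusted p = 0.995 for each). Limma called 0 of 24292 probe sets (0%) in this test, and 912 (3.75%) had an unadjusted p under 0.05. Large-axon markers had a left minus right median of -0.16 over all regions and -0.032 without the 2 arrays, and meningeal markers one of -0.62 in STC, with 0 markers called. Their part in the hemisphere values was not tested.

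**Figure D3:**
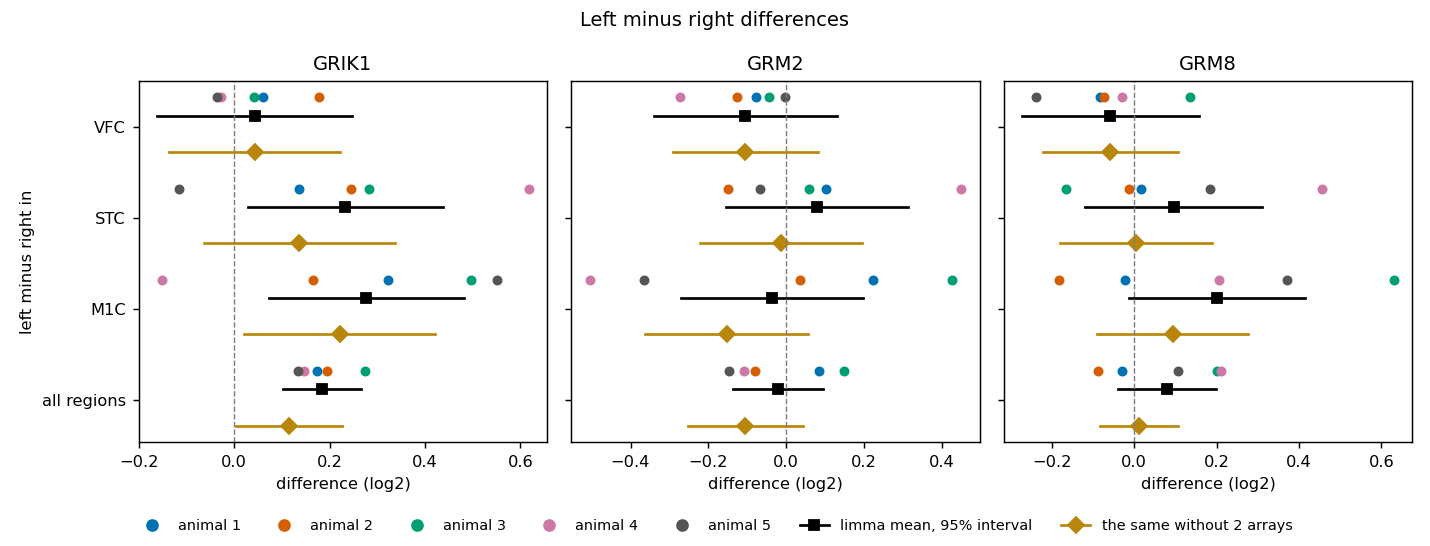
Left minus right differences (horizontal axes, log2) of the 3 genes in VFC, STC, M1C and over all regions; coloured points are the 5 animals, black squares the limma mean with its 95% interval and yellow diamonds the same without 2 arrays. Over all regions the 5 animals of GRIK1 lie between 0.13 and 0.27 on all arrays, but between -0.090 and 0.19 without the 2 arrays, and those of GRM2 and GRM8 lie on both sides of 0.

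On all 30 arrays the 3 genes shared part of their variation. After subtraction of each animal's mean, Pearson's r over the 30 arrays was 0.58 between GRIK1 and GRM2, 0.68 between GRIK1 and GRM8 and 0.38 between GRM2 and GRM8. With the group means also removed it was 0.53, 0.43 and 0.51. These r values describe arrays that share animals, regions and normalization, and carry no test. They include the 2 arrays that lay nearer another animal and were not recomputed without them. The left M1C array of animal 3 had the highest value of its group for all 3 genes. The right STC array of animal 4 lay below its group mean for all 3. Among 10942 genes the patterns most like GRIK1 were those of TMOD1, which caps actin filaments (r = 0.948), SYT10, a synaptotagmin (r = 0.940), and SORBS2, a cytoskeletal adaptor (r = 0.938). Those most like GRM2 were B4GALT2, a galactosyltransferase (r = 0.889), NETO2, an auxiliary subunit of kainate receptors (r = 0.888), and SDK1, a cell adhesion protein (r = 0.886). Leaving out the 2 arrays gave r of 0.947, 0.939 and 0.941 for the first trio and 0.874, 0.871 and 0.873 for the second. Named after their values were seen, RXFP1, CPNE9 and NCALD were most like GRM8 (r = 0.886, 0.876 and 0.851), and RIMKLA ran most opposite to GRIK1 (r = -0.925).

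The choice by likeness fixes the region pattern of these genes, so their values are a description. TMOD1 was higher by 0.59 log2 in VFC than in M1C and by 0.56 in STC than in M1C (limma adjusted p = 0.00720 and 0.0275), with a VFC minus STC difference of 0.033 (adjusted p = 0.943). B4GALT2 was higher by 0.41 in VFC than in M1C (adjusted p = 0.00453), while its STC minus M1C difference was 0.036 (adjusted p = 0.832). RXFP1, which encodes a relaxin receptor, was higher by 0.57 in STC than in M1C (adjusted p = 0.0190) and by 0.34 in VFC than in M1C (adjusted p = 0.0492).

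Genes around these receptors were read from 5 lists of receptor partners, effectors and glutamate handling, on which 66 genes were tested. The lists were chosen with earlier results of these data known. Each gene was read by its brightest probe set, while the shares of all probe sets include those without a gene symbol. The counts are therefore a description. Between VFC and M1C 15 were higher and 6 lower in VFC (31.8% called, beside 10.5% of all probe sets), with a list median of 0.049 log2 beside 0.0028 for all probe sets. Between STC and M1C 0 were higher and 3 lower in STC (4.55%, beside 2.36%), and between VFC and STC 1 was higher in VFC (1.52%, beside 0.214%). After removal of the 2 arrays the counts were 15 higher and 6 lower, 7 higher and 8 lower, and 1 higher and 1 lower. Limma then called 14.7%, 12.6% and 0.655% of all probe sets. None of the 66 was called between hemispheres or in the interaction, where limma called 0 of all probe sets.

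Among partners of kainate receptors, 3 of 12 tested genes were higher in VFC than in M1C and 0 lower. C1QL3 and C1QL2, secreted proteins that bind kainate receptors at mossy fibre synapses in mouse, were higher by 0.31 ± 0.061 and 0.27 ± 0.070 log2 (limma adjusted p = 0.00892 and 0.0308). NETO2 was higher by 0.19 ± 0.052 (adjusted p = 0.0361), in 4 of 5 animals. C1QL3 was also higher in VFC than in STC, by 0.38 ± 0.061 (adjusted p = 0.0356), and no gene of this list was called between STC and M1C on all arrays. Without the 2 arrays C1QL2 was called higher in STC than in M1C, by 0.28 ± 0.074 (adjusted p = 0.0288), and without 4 arrays it was not (0.27 ± 0.081, adjusted p = 0.05002). NETO1, the other auxiliary subunit of this kind, named after its value was seen, differed by 0.017 ± 0.038 between VFC and M1C (adjusted p = 0.834).

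Among scaffold and trans-synaptic partners of metabotropic receptors, 7 of 14 were higher in VFC than in M1C and 0 lower. ELFN2 and ELFN1, adhesion proteins that bind group III receptors such as mGlu8 across the synapse, were higher by 0.37 ± 0.060 and 0.24 ± 0.055 log2 (limma adjusted p = 0.00380 and 0.0156). SHANK2 and SHANK1, scaffolds of the postsynaptic density, were higher by 0.27 ± 0.045 and 0.25 ± 0.044 (adjusted p = 0.00427 and 0.00479). All 4 were higher in 5 of 5 animals. No gene of this list was called between STC and M1C on all arrays, and 3 (SHANK2, ELFN1 and ELFN2) were called higher in STC without the 2 arrays.

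Of the Gi effectors and regulators, through which mGlu2 and mGlu8 act, 2 of 17 were higher in VFC than in M1C, a share near the 10.5% of all probe sets. They were RGS14, a regulator of G protein signalling (0.28 ± 0.059 log2, limma adjusted p = 0.0120), and GNAI2, a Gi alpha subunit (0.18 ± 0.048, adjusted p = 0.0283). The call of GNAI2 was lost without 4 arrays (adjusted p = 0.0537). Of 11 Gq effectors, 2 were higher and 1 lower. DGKZ, a diacylglycerol kinase, was higher by 0.25 ± 0.068 (adjusted p = 0.0370) and GNA11, a Gq-type alpha subunit, by 0.18 ± 0.043 (adjusted p = 0.0220), while ITPR2, an inositol trisphosphate receptor, had -0.32 ± 0.064 (adjusted p = 0.00957).

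Of 12 genes of glutamate and N-acetylaspartylglutamate supply and clearance, 5 were lower and 1 higher in VFC than in M1C. N-acetylaspartylglutamate is a peptide transmitter that acts on group II receptors. FOLH1, which encodes the enzyme that degrades it, had -0.56 ± 0.11 log2 (limma adjusted p = 0.00977). RIMKLA, which encodes an enzyme that makes it, had -0.47 ± 0.082 (adjusted p = 0.00489), and NAT8L, which makes its precursor N-acetylaspartate, had -0.32 ± 0.059 (adjusted p = 0.00595). SLC38A2, a transporter of neutral amino acids, had -0.33 ± 0.056 (adjusted p = 0.00430). The gene higher in VFC was RIMKLB, a relative of RIMKLA (0.18 ± 0.048, adjusted p = 0.0335), named after its value was seen, and its call was lost without the 2 arrays (adjusted p = 0.0561). RIMKLA, NAT8L and GLUL, the glutamine synthetase gene that is also on the astrocyte list, were lower in STC than in M1C, with differences of -0.43 ± 0.082, -0.27 ± 0.059 and -0.25 ± 0.049 (adjusted p = 0.0244, 0.0344 and 0.0275).

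**Figure D4:**
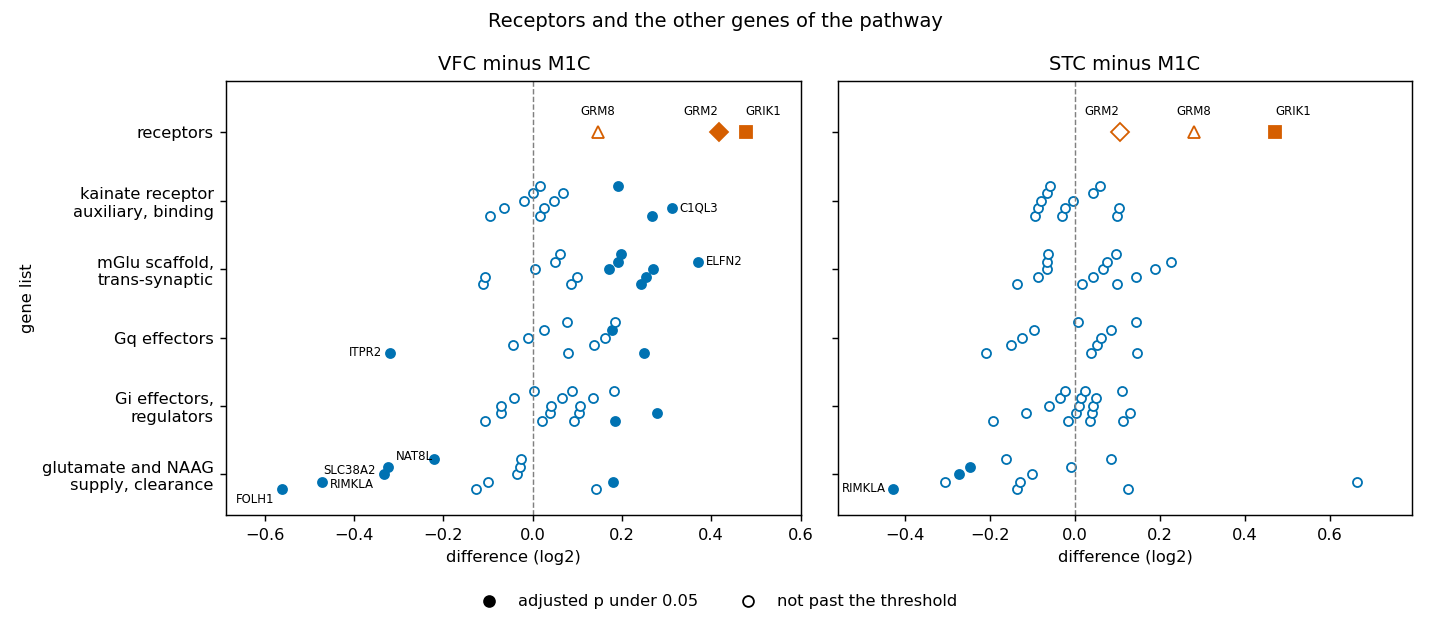
Region differences (horizontal axes, log2) of the 3 receptor genes (top row) and of the 66 tested genes of 5 lists (rows), VFC minus M1C on the left and STC minus M1C on the right; filled points had a limma adjusted p under 0.05 and open points did not. Between VFC and M1C 15 of the 66 were called higher and 6 lower in VFC, and between STC and M1C 3 were called, all lower in STC.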

How the data were processed

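The authors deposited log2 intensities made by RMA with the oligo package, per the submitters' processing notes, which give no version. The values covered 40489 probe sets, and array medians lay between 6.57 and 6.64. Gene names came from the platform annotation, in which 16020 probe sets had 1 symbol, 490 several and 23979 were unlisted; the array's genome build is not given in the sources used here. Arrays have no read depth, and the 5 animals limit the precision.

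Probe sets with a mean above the 40th percentile (6.04 log2) were tested with limma 3.58.1 in R 4.3.3, two-sided. Benjamini-Hochberg adjustment ran over 24292 probe sets, with a threshold of 0.05. Of these, 2037 had values identical to those of an earlier probe set and were counted separately in all shares. Version 1.17.8 of data.table read the files, and figures were drawn with matplotlib 3.10.9 in Python 3.11.15. Regions were compared on hemisphere averages with animal as block, and hemispheres on left minus right differences within animals. The number in the titles was taken to mark the same animal, and arrays with 1 number had a median r of 0.18 to 0.45. For the 2 arrays that lay nearer another animal, this rests on the label alone, and their EIF1AY values went against the labelled sex. No batch or scan date is labelled. The p-values for regions measure how region differences vary among these 5 animals, since the level of each animal is removed. Those for left minus right in single regions and for the interaction treat the 15 differences of the 5 animals as independent. The test of left minus right over all regions used 1 value per animal.

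The receptor genes, lists and alternatives were chosen with earlier results of these data known. All receptor genes present are named, with up to 4 called genes per list and comparison by size of difference and the 3 genes most correlated with each called receptor gene. The code of the fits was run on simulated data with independent normal noise, and the outcome is not given here. Alternatives changed the filter, centring, variance model, averaging of probe sets, block, hemispheres, arrays and animals.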

Additional observations from a re-analysis of the deposited data

Results flagged for a closer look

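In 39 groups of 5 values, 2 had a value set apart from the other 4 by Dixon's criterion, which chance flags in about 1 of 20 groups. GRIK1 read 9.27 log2 in left VFC of animal 2, while the other 4 animals read 8.76 to 8.88 there. GRIK1 read 8.32 in right STC of animal 4, while the other 4 animals read 8.81 to 8.99. The second value comes from the array that lay nearer animal 3, and the first from an array that lay closest to its own animal.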

How the results depend on the processing

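Each region result was recomputed under 16 alternatives and each hemisphere result under 14. In 1 of them all probe sets of a gene were averaged, which could not change the values of these 3 genes, since each had 1 probe set. The number of the 3 receptor genes called between VFC and M1C was 2, and became 3 without 2 or 4 arrays. It became 1 with no replicate block (GRM2 adjusted p = 0.0613) and 0 with left arrays only (GRIK1 0.184, GRM2 0.151). The shares of all probe sets called were 14.7% and 15%, 3.43% and 0.0123% in turn, beside 10.5% with none of these changes. Between STC and M1C the number of receptor genes called was 1. It became 0 with no filter, with no replicate block (GRIK1 adjusted p = 0.0648), with left arrays only and with right arrays only. The shares of all probe sets called were then 0.304%, 0%, 0% and 0.103%, beside 2.36% with none of these changes. The number became 2 (GRIK1 and GRM8) with a filter at the 60th percentile, with trend and robust variance, and without 2 or 4 arrays. The shares of all probe sets were then 5.08%, 3.8%, 12.6% and 12%. With single animals left out the number was 0 to 1, and the share 0.00823% to 1.76%. The number stayed 0 for VFC minus STC, the 4 left minus right comparisons and the interaction in all their alternatives. There limma called at most 1.1% of all probe sets. The block changed no other call.

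Over these alternatives the adjusted p ran from 0.000390 to 0.184 for GRIK1 and from 0.000495 to 0.151 for GRM2 between VFC and M1C. Between STC and M1C it ran from 0.000412 to 0.258 for GRIK1 and from 0.000795 to 0.381 for GRM8.

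Signs turned only for differences that were not called. With single animals left out, GRIK1 VFC minus STC was -0.030 to 0.050 log2 (-0.0098, -0.030 and -0.0069 without animals 2, 4 and 5), and it was -0.057 without 2 arrays, -0.082 without 4 and -0.090 with left arrays only. GRM2 left minus right in STC was -0.013 to 0.14 with single animals left out (negative without animal 4), -0.013 without 2 arrays, and -0.038 without 4 arrays or without animals 3 and 4. In M1C it was -0.15 to 0.080 with single animals left out (0.080 without animal 4 and 0.046 without animal 5), and over all regions -0.063 to 0.011 (0.0016 and 0.011). GRM8 left minus right over all regions was -0.0045 without animals 3 and 4. The causes were not tested. Of the genes on the pathway lists, those called between STC and M1C went up to 15 without 2 or 4 arrays, and between VFC and STC to 2 and 3. The share of all probe sets called between STC and M1C also rose, from 2.36% to 12.6% and 12%. Between VFC and STC that share rose from 0.214% to 0.655% and 1.1%.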
